A study of Mus musculus with 16 samples.

Results

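Type I interferon response genes are genes that most cells switch on when interferon alpha or beta binds its receptor. The set described here was chosen by name and holds 37 such genes, among 26595 features listed for an experiment on CD93 and 36930 for an experiment on a drug. The CD93 tables list all 37, and the drug tables list 36 and not Mx1. RNA was sequenced from sorted bone marrow cells of 8-week-old mice, in 16 libraries that form 6 groups. Naive LSK cells (marrow cells that lack lineage markers, carry Sca-1 and c-Kit and include the blood stem cells) came from wild-type C57BL/6 mice (WT LSK, 2 libraries) and from CD93-/- mice (KO LSK, 2 libraries). Leukemia stem cells (LSCs) came from mice with a chronic myeloid leukemia made by transducing WT or CD93-/- LSK cells with BCR-ABL1-GFP and injecting them into BL/6 hosts that had not been irradiated, so the hosts of both genotypes of leukemia were wild type and kept their own marrow (WT LSC and KO LSC, 3 libraries each). In the drug experiment, BL/6 mice with leukemia from WT cells received MCP at 10 mg/kg or vehicle (Veh LSC and MCP LSC, 3 libraries each). Strain is given as C57BL/6 for the WT samples and not for the CD93-/- ones.

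Interferons alpha and beta bind a receptor made of IFNAR1 and IFNAR2, and the kinases JAK1 and TYK2 then phosphorylate STAT2. STAT2 and IRF9 are parts of the factor ISGF3, which binds a short promoter motif, the interferon-stimulated response element, and turns on genes that detect and block viruses. In blood-forming stem cells the pathway is known for pushing resting cells into division, and interferon alpha is a long-used treatment of chronic myeloid leukemia.

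The promoter motif is shown first because it is what these genes are known to share. RefSeq windows on GRCm38.p6 (250 bases before to 50 after the start of a transcript) were matched for 28 of the 37 genes. The core of this element, GAAA and GAAA parted by any 2 bases (TTTC and TTTC on the other strand, both searched), occurred in a window of 12 of the 28, or 42.86%, against 3.993% of the 27025 genes in the table. A longer form that ends in CT after the core occurred in 6 of the 28 (21.43%, against 0.3034% of all genes). The 250 bases upstream of Ifit1 and of Isg15 are printed with core matches in capitals, because among the 4 LSK libraries the highest value of Ifit1 was 27.9 times the lowest, against 1.29 times for Isg15, the narrowest range of the 37 genes. The Ifit1 stretch is chr19:34640639-34640888 (plus strand) and that of Isg15 is chr4:156200819-156201068 (minus strand).
Ifit1: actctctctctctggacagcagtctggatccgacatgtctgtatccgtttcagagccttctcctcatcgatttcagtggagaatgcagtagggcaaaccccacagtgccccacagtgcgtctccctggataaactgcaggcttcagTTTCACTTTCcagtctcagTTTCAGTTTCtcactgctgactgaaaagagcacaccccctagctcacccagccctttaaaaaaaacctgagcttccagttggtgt
Isg15: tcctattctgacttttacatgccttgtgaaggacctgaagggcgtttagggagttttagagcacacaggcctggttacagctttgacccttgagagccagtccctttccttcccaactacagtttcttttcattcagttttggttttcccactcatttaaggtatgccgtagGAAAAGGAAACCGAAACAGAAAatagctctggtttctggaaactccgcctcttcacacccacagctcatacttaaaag
Ifit1 held 2 separate matches and Isg15 held 3 that overlap, so genes with a wide and with a narrow range both carried the core.

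Shorter stretches around the matches upstream of 4 other genes, again in capitals with 8 bases on either side, show how the motif varies in its 2 free bases. They lie at chr19:34583399-34583424 (Ifit3, plus strand, 1 of its 2 matches), chr5:120777717-120777742 (Oas3, minus strand), chr12:26456555-26456580 (Rsad2, minus strand) and chr8:71537579-71537610 (Bst2, minus strand).
Ifit3: taagtctgTTTCAGTTTCtactttcc
Oas3: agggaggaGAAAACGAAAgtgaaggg
Rsad2: ggtccaacTTTCATTTTCagaaaaca
Bst2: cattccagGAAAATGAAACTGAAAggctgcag
The first matched base of these stretches lay 75 to 130 bases upstream of the start, and a match describes letters only, not binding.

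Values are RPKM, reads scaled by transcript length and sequencing depth, a unit inferred from the values. The deposited tables hold no counts, so depth is unknown and no counting interval is given. The lowest value, 0.003 in the CD93 tables and 0.001 in those of the drug, stands for no signal, and at unknown depth it does not show that a gene was off. Features above it numbered 14279 to 14906 in LSK libraries, 5525 to 7956 in WT LSC, 1230 to 2967 in KO LSC, 19554 to 20014 in Veh LSC and 15587 to 16447 in MCP LSC. Of 10 genes that most cells express, 5 to 8 were above it in KO LSC libraries and 8 or 9 in WT LSC. Cd93 measured 5.34 and 22.9 RPKM in WT LSK libraries and 1.01 and 2.10 in those from CD93-/- mice. In WT LSC it measured 0.003, 0.003 and 5.74. In KO LSC it was 0.003, 44.3 and 0.003, so the library labelled KO LSC 2 went against its label, and results that rest on it are also given without it. Of 10 LSK and stem cell markers, all were above the lowest value in LSK libraries, 2 to 4 in WT LSC and 1 in each KO LSC library, with Kit at 0.003 in all 3 of the latter. The sum of 10 neutrophil markers was 63606 to 109521 RPKM in WT LSC, 31522 to 55005 in KO LSC and 1970 to 5627 in LSK libraries. Not all of these markers went with the sum. In WT LSC 5 to 8 of the 10 were above the lowest value, in KO LSC 4 or 5, and in LSK libraries 7 to 9. Cxcr2 and Ly6g were at 0.003 in all WT and KO LSC libraries, and Ngp, Mmp8 and Retnlg in all KO LSC libraries. In such bulk samples, fewer cells of a type and less RNA per cell cannot be told apart.

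All 37 genes were above the lowest value in each LSK library, and all 36 in each drug library. In the leukemic cells of the CD93 experiment the numbers were 28, 23 and 17 in the WT LSC libraries and 11, 6 and 3 in the KO LSC libraries. The genes together made up 0.518% to 0.706% of the column total in LSK cells, 0.139% to 0.222% in WT LSC, 0.348% to 0.689% in KO LSC, 0.146% to 0.152% in Veh LSC and 0.104% to 0.120% in MCP LSC. The 37 genes summed to 3845, 9377 and 6697 RPKM in KO LSC 1 to 3, and to 2406, 1729 and 267 without the membrane protein genes Ifitm3, Ly6e and Bst2. These 3 genes therefore made up most of the sum in KO LSC 2 and 3 and not in KO LSC 1.

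**Figure D1:**
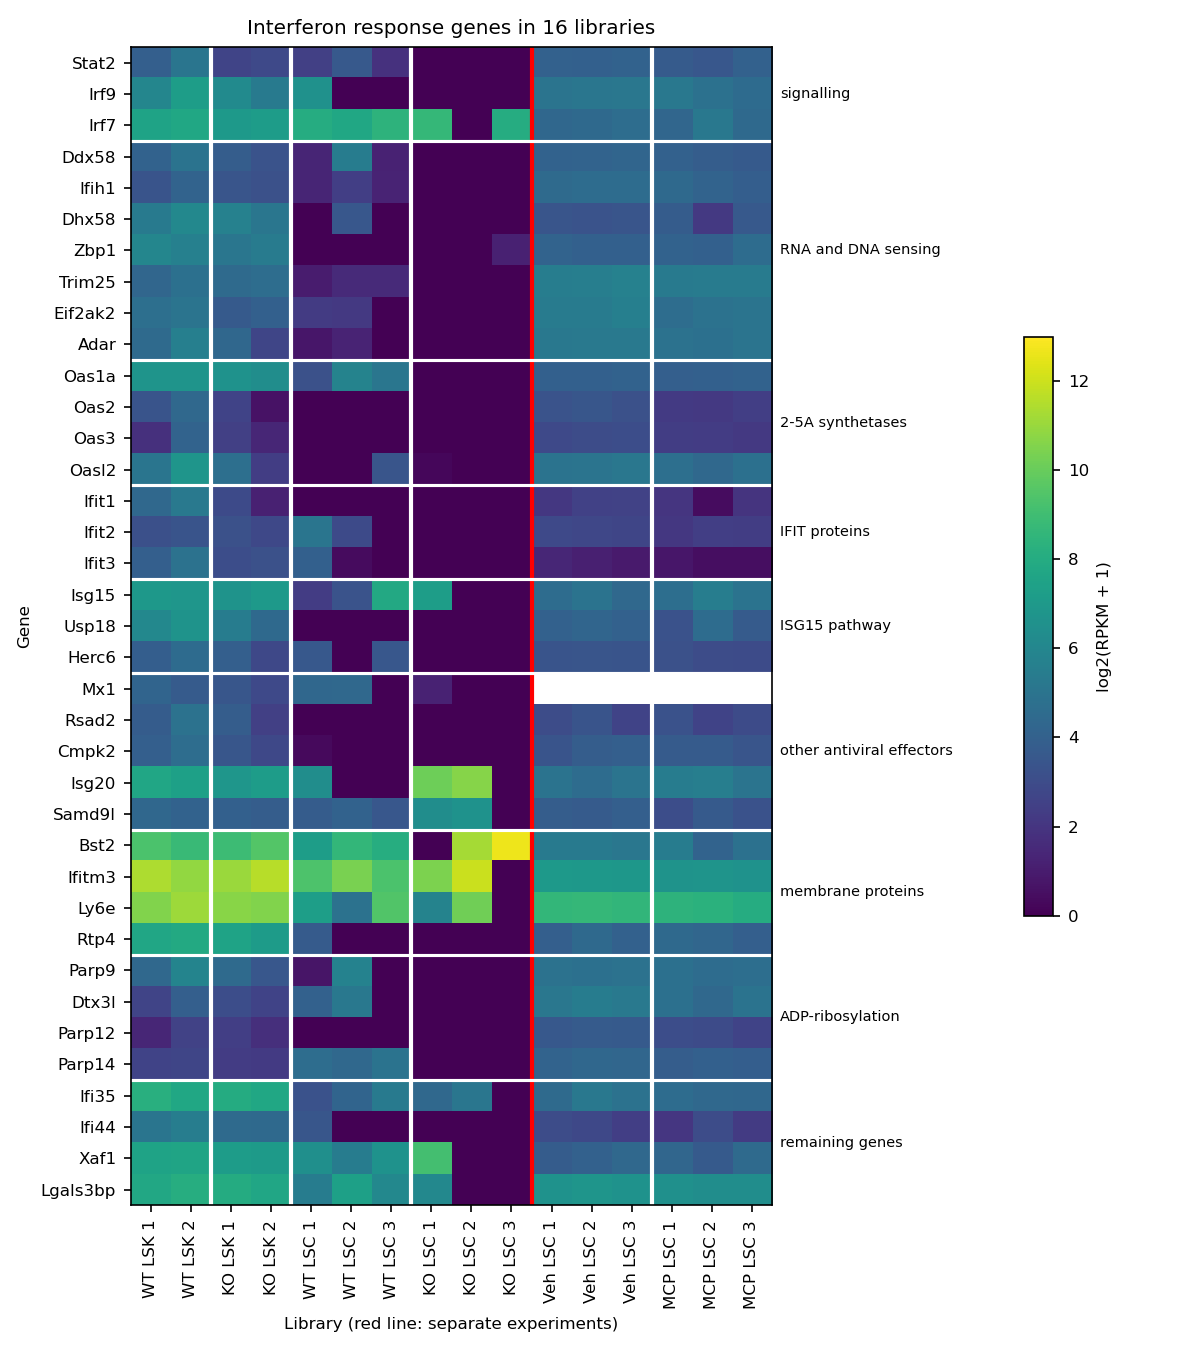
Level of each of the 37 genes (rows, grouped by role) in the 16 libraries (columns), as log2(RPKM + 1). White lines part groups and roles, the red line parts the experiments, and the white row is Mx1, which the drug tables did not hold. The 3 KO LSC columns are dark for most rows: 11, 6 and 3 genes were above the lowest value there, against 37 in each LSK column. Of all features, 11.2%, 8.69% and 4.62% were above it in these KO LSC columns, against 53.7% to 56.0% in LSK columns.

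The highest levels in WT LSK cells belonged to genes of membrane proteins. Ifitm3, which blocks the entry of viruses, measured 2669 and 1905 RPKM in the WT libraries and 2118 and 3106 in the KO libraries. Ly6e, a lipid-anchored surface protein, measured 1471 and 2212 in WT and 1648 and 1482 in KO. Bst2 (tetherin), which holds budding viruses at the cell surface, measured 642 and 450 in WT and 482 and 735 in KO. For all of these the genotypes overlapped. Ifi35, next in order, measured 295 and 213 in WT and 251 and 210 in KO, also overlapping. At the low end of the order were Parp12, Parp14 and Ifit2, with WT LSK means of 3.27, 5.36 and 8.81. In vehicle-treated LSCs of the drug experiment Ly6e was highest, with 384, 408 and 379 RPKM, followed by Ifitm3, Lgals3bp and Trim25 with means of 123, 102 and 47.7. The order of the genes by mean level had a Spearman correlation of 0.928 between WT and KO LSK, 0.951 between Veh and MCP LSC and 0.529 between WT LSK and Veh LSC, over 36 genes. These describe orders across genes, which are not independent, and the experiments were tabulated separately.

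The first comparison asks how loss of CD93 goes with these genes in naive LSK cells. Most of the 37 were lower in the CD93-/- cells, none passed the test across all genes, and the spread between libraries of a genotype was as large as the difference. The log2 difference between KO and WT was below 0 for 33 of 37 genes, against 57.8% of the 13208 genes tested, and its median was −0.54 against −0.11 for all genes (35 of 37 and −0.56 against −0.01 under quantile normalization). Both KO libraries were below both WT libraries for 20 of 37, where the background was 20.7%, and in no gene were both above, where it was 14%. In limma's moderated test on log2(RPKM + 1), two-sided with Benjamini-Hochberg adjustment, 0 of 37 genes passed at 0.05, as did 0% of all genes. At an unadjusted p under 0.05, 8 of the 37 were lower and 0 higher, against 3.16% and 2.68% of all genes. The smallest adjusted p among the 37 was 0.700, for Ifit1.

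Stat2, Irf9 and Irf7, the signalling genes of the set, were lower in mean. Stat2, a part of ISGF3, measured 14.3 and 32.3 RPKM in WT LSK and 5.35 and 6.20 in KO, with no overlap (log2 difference −1.74, SE 0.58, limma adjusted p = 0.789). Irf9, the DNA-binding part of ISGF3, measured 61.7 and 150.3 in WT and 72.9 and 39.4 in KO, where WT LSK 1 lay between the KO libraries. Irf7, the factor that amplifies interferon production, measured 188 and 217 in WT and 131 and 146 in KO, a smaller difference (−0.54, SE 0.30) with no overlap.

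Among the oligoadenylate synthetases, which make the messenger that activates RNase L, all 4 were lower in mean and 3 had no overlap. Oas2 measured 9.50 and 19.7 RPKM in WT LSK and 5.13 and 0.579 in KO (log2 −2.24, SE 0.79, adjusted p = 0.797). Oasl2, a relative of these enzymes, measured 31.8 and 110 in WT and 26.0 and 4.23 in KO (−2.34, SE 0.83, adjusted p = 0.797). In both genes the 2 libraries of a genotype differed more than WT LSK 1 differed from KO LSK 1. Oas3 measured 2.52 and 16.6 in WT and 4.60 and 1.62 in KO, and overlapped. Oas1a was nearly level, at 104 and 107 in WT and 98.3 and 80.9 in KO (−0.24, SE 0.31).

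The IFIT proteins bind foreign RNA and form complexes with each other. Ifit1 measured 20.3 and 36.95 RPKM in WT LSK and 6.54 and 1.33 in KO, the largest difference of the 37 genes in this comparison (log2 −2.76, SE 0.70, limma adjusted p = 0.700). Ifit3 measured 14.2 and 28.7 in WT and 7.40 and 8.22 in KO (−1.27, SE 0.55). Ifit2 measured 8.16 and 9.46 in WT and 8.28 and 6.14 in KO, and overlapped. The 3 genes lie in a shared stretch of chromosome 19 (34550694 to 34650009, GRCm38, GENCODE M21), so genes of that stretch differed in size of difference.

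ISG15 is a ubiquitin-like protein that is attached to other proteins. Isg15 measured 122 and 114 RPKM in WT LSK and 100.3 and 129 in KO, with the narrowest range of the 37 genes over the 4 libraries. Usp18, whose product removes ISG15 and dampens the receptor, measured 67.2 and 102 in WT and 43.6 and 20.7 in KO, with no overlap (−1.43, SE 0.45, adjusted p = 0.785). Herc6, the ligase that attaches ISG15 in mice, measured 13.9 and 22.2 in WT and 14.4 and 6.00 in KO.

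Of the 7 sensors and RNA-acting proteins, 6 were lower in mean and 4 had no overlap. Adar, which edits adenosines in double-stranded RNA, measured 21.4 and 48.4 RPKM in WT and 19.1 and 5.49 in KO (log2 −1.54, SE 0.66, adjusted p = 0.830). Eif2ak2 (PKR), a kinase that stops translation when it binds double-stranded RNA, measured 25.6 and 30.8 in WT and 11.7 and 14.7 in KO (−1.04, SE 0.45, adjusted p = 0.830). Within a genotype Eif2ak2 was close while Adar varied more than 2-fold.
Ddx58 (RIG-I) measured 16.1 and 29.6 in WT and 13.1 and 9.09 in KO. Ifih1 (MDA5) measured 9.34 and 16.7 in WT and 9.72 and 8.24 in KO. Dhx58 (LGP2) measured 39.6 and 66.7 in WT and 52.1 and 33.2 in KO. Of these 3 helicases that recognise viral RNA, only Ddx58 had no overlap. Zbp1, a sensor of Z-form nucleic acid, measured 61.1 and 49.2 in WT and 33.0 and 41.0 in KO, again without overlap. Trim25, a ubiquitin ligase that acts on RIG-I, was level, at 18.6 and 26.8 in WT and 21.6 and 23.9 in KO.

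All 5 of Mx1, Rsad2, Cmpk2, Isg20 and Samd9l had a log2 difference below 0 (−1.18 to −0.30), and in all but Rsad2 the genotypes did not overlap. Rsad2 (viperin), which makes a chain-terminating nucleotide, measured 12.8 and 28.6 RPKM in WT LSK and 13.4 and 4.58 in KO. Cmpk2, its neighbour on chromosome 12 and a mitochondrial nucleotide kinase, measured 14.3 and 24.0 in WT and 9.97 and 6.04 in KO. Mx1, a dynamin-like GTPase that traps viral particles, measured 17.0 and 12.2 in WT and 10.3 and 6.29 in KO. Of the ADP-ribosylation genes, Parp9 measured 20.3 and 57.2 in WT and 21.4 and 10.6 in KO, and its partner Dtx3l 5.44 and 14.3 in WT and 7.35 and 5.17 in KO. These neighbours on chromosome 16 share a promoter region and lie on opposite strands, and the kit used does not keep strand, so reads could be split between them in counting. Parp12, with 1.61 and 4.93 in WT and 4.32 and 2.42 in KO, was among the 4 genes with a log2 difference above 0, with Trim25, Bst2 and Ifitm3.

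**Figure D2:**
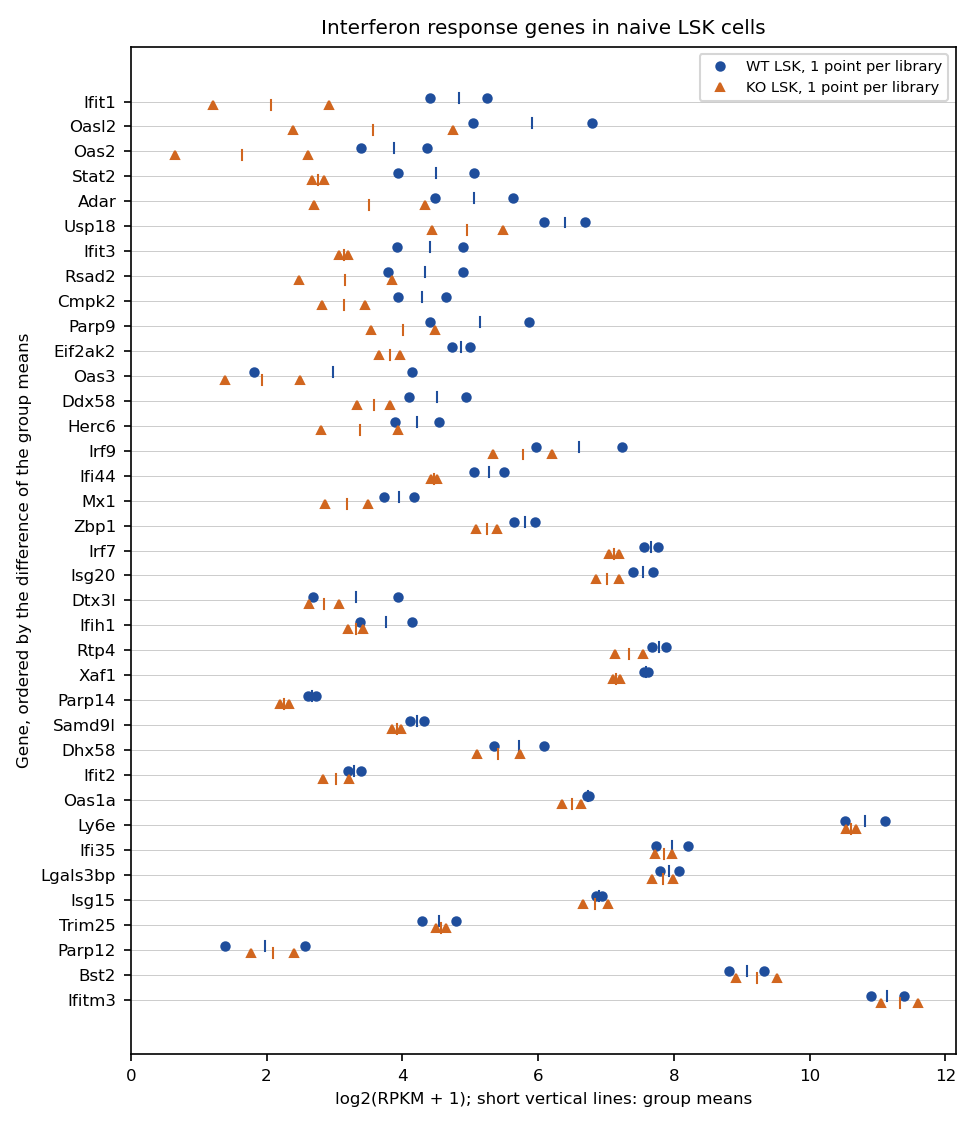
Level of each of the 37 genes in the 2 WT LSK libraries (circles) and the 2 KO LSK libraries (triangles), as log2(RPKM + 1), ordered by the difference of the group means, which short lines mark. Ifit1, Oasl2 and Oas2 head the order, 20 genes have both triangles left of both circles, and the 4 genes at the bottom have a KO mean above the WT mean.

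The libraries did not contribute equally. WT LSK 2 held the highest of the 4 values for 29 of 37 genes and KO LSK 2 the lowest for 25, against 40.0% and 39.0% of all genes tested. Within the wild type, 29 genes were higher in WT LSK 2 than in WT LSK 1, by a median of 0.59 on the log2 scale, which is larger than the median difference between the genotypes. WT LSK 1 against KO LSK 1 gave 24 genes lower in KO (median −0.27), and against KO LSK 2 gave 31 lower (−0.51). WT LSK 2 against either KO library gave 34 lower, with medians of −0.59 and −0.94. Gene length moved with the libraries too. With all genes split into 3 classes by exon length, the median KO minus WT difference was 0.07, −0.21 and −0.24 from short to long, and that of the interferon genes in the same classes was −0.24, −0.56 and −0.84. In each class the interferon genes were below the class median, and the part of length in the result was not tested.

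Marker genes of other cells also differed between these groups. A list of 10 macrophage markers, all above the lowest value in each library, summed to 1050 to 1754 RPKM in WT LSK and 2114 to 2760 in KO LSK. Of 9 T and NK cell markers, 7 to 9 were above it, with sums of 695 to 709 in WT and 902 to 982 in KO. Stem cell markers summed to 1804 to 2596 in WT and 1396 to 1713 in KO. Plasmacytoid dendritic cells are the main makers of type I interferon, and their 10 markers summed to 629 to 636 in WT and to 560 and 703 in KO. Of the macrophage markers tested, 6 had a log2 difference above 0 and 3 below, and of the T and NK cell markers 7 were above and 2 below. For stem cell markers 1 was above and 9 below, and for those of plasmacytoid dendritic cells 4 were above and 6 below. Of all these markers 0 passed. The part of these cells in the result was not tested.

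The rest of the pathway in LSK cells gave no call either. For scale, 57.8% of all genes tested had a difference below 0 and 20.7% were lower without overlap. At an unadjusted p under 0.05, 3.16% of all genes were lower and 2.68% higher. Ifnb1, the gene of interferon beta, was at the lowest value in all 16 libraries, and no gene of 21 interferon ligands reached the level needed for a test in LSK cells. Of 8 receptor and JAK-STAT genes, 6 had a difference below 0 and 0 passed (1 at an unadjusted p under 0.05). Ifnar2, a chain of the receptor, measured 218 and 199 RPKM in WT LSK and 209 and 227 in KO, and the genotypes overlapped. Of 15 sensors and adaptors tested, 12 were below 0, 0 without overlap (background 20.7%), and 0 passed (0 at an unadjusted p under 0.05). Of 8 negative regulators, 5 were below 0 and 0 passed (1 higher at an unadjusted p under 0.05). Of 17 interferon-inducible GTPases, which attack vacuoles of intracellular microbes, 15 were below 0, 8 without overlap, and 0 passed (3 at an unadjusted p under 0.05). Their most abundant member Tgtp1 averaged 476 in WT and 216 in KO, and shares sequence with Tgtp2. Of 48 other interferon-stimulated genes tested, 39 were below 0, 21 without overlap, and 0 passed (5 lower and 0 higher at an unadjusted p under 0.05). The largest step in the other direction, singled out after its values were seen, was that of Socs1, an inhibitor of JAK kinases, with 2.96 and 1.27 in WT and 27.3 and 18.8 in KO (log2 2.98, SE 0.61, adjusted p = 0.508).

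The second comparison sets leukemic WT LSCs against naive WT LSK cells. Most of the interferon genes were far lower or absent in the LSC tables, as were most genes, and 1 gene rose. Of the 37 genes, 14 fell and 1 rose in limma's test (adjusted p under 0.05), where 38.8% and 2.12% of the 12449 genes tested did. LSC libraries were below LSK libraries without overlap for 27 of 37, against 56.6% of all genes. The log2 difference was below 0 for 35 of 37, against 83% of all genes, with a median of −2.97 against −2.14. Under quantile normalization, which gives every library the same distribution, 24 of 37 were below 0, 4 fell and the median was −0.76 against 0.21, so the size of the distance from LSK cells depended on the scaling. Leaving out WT LSK 1 or WT LSK 2 left 1 and 0 of the 37 genes lower, with 29 still tested. Macrophage markers, 9 or 10 of 10 above the lowest value, summed to 3995 to 11900 RPKM in WT LSC and 1050 to 1754 in WT LSK. Of 9 such markers tested, 7 had a difference above 0 and 2 below, and 3 passed higher and 1 lower. The part of these markers in the result was not tested.

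Of the 14 that fell, 7 were at 0.003 in all 3 WT LSC libraries: Ifit1, Oas2, Oas3, Rsad2, Usp18, Zbp1 and Parp12. Their adjusted p ran from 0.000508 (Zbp1) to 0.0348 (Oas3), and no fold is given because the LSC group is at the lowest value. Such genes met the filter of 1 RPKM in 2 libraries through the LSK group alone and could only be called lower. Their LSC libraries added no spread to the error of the test, which also draws on the spread of all genes. The other 7 kept a signal in at least 1 library. Ifi35, a partner of another interferon-induced protein, measured 8.65, 17.0 and 39.1 RPKM (log2 −3.72, SE 0.79, adjusted p = 0.0225). Ifih1 measured 1.51, 4.26 and 1.44 (−2.09, adjusted p = 0.0492). Trim25 measured 1.02, 1.92 and 1.94 (−3.17, adjusted p = 0.00600). All 3 were below both WT LSK libraries in every LSC library. Under quantile normalization the differences of Ifih1 (1.34), Trim25 (0.30) and Parp12 (0.34) were above 0 and did not pass. Adar measured 0.702, 1.47 and 0.003 (adjusted p = 0.00670), Eif2ak2 3.77, 3.54 and 0.003 (adjusted p = 0.0423), Cmpk2 0.241, 0.003 and 0.003 (adjusted p = 0.000954), and Rtp4, a chaperone of membrane receptors, 12.1, 0.003 and 0.003 (adjusted p = 0.0231).

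Parp14 rose. It encodes a mono-ADP-ribosyltransferase (chromosome 16, 35832874 to 35871544, minus strand, GRCm38, protein-coding) and lies next to Dtx3l and Parp9. It measured 5.08 and 5.64 RPKM in WT LSK and 24.5, 19.9 and 29.8 in WT LSC, or 5.36 ± 0.399 (SD, n = 2) and 24.7 ± 4.97 (SD, n = 3). Every LSC library was above both LSK libraries (log2 1.999, SE 0.50, adjusted p = 0.0360), with adjusted p = 0.0418 under quantile normalization. Of its neighbours, Dtx3l measured 15.6, 35.6 and 0.003 in WT LSC against 5.44 and 14.3 in WT LSK (adjusted p = 0.932). Parp9 measured 0.649, 53.2 and 0.003 against 20.3 and 57.2 (adjusted p = 0.319). In both the groups overlapped. The call was lost without WT LSC 3 (adjusted p = 0.0501), without WT LSK 1 (0.769) or without WT LSK 2 (0.856), and with a filter at a mean of 5 RPKM (0.0699), a pseudocount of 0.1 (0.0709), library weights (0.0599) or the replicate block (0.182).

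Genes with a signal in all 3 WT LSC libraries numbered 15. Irf7 measured 266, 216 and 340 RPKM there, against 188 and 217 in WT LSK (log2 0.41, SE 0.37, adjusted p = 0.438), and was the only other gene with a difference above 0. Isg15 measured 3.997 and 9.02 in libraries 1 and 2 and 233 in library 3. Oas1a measured 8.21, 55.3 and 33.0, and Stat2 4.44, 11.3 and 2.56. Samd9l, which restrains cell growth and poxviruses, was nearly level with LSK cells, at 12.8, 15.7 and 10.4 against 19.1 and 16.3. Ifitm3 measured 659, 1318 and 647, Bst2 150, 391 and 275, and Ly6e 158, 29.3 and 697, all below LSK cells in mean without passing. Isg20, an exonuclease that degrades viral RNA, measured 82.4, 0.003 and 0.003, and Irf9 94.0, 0.003 and 0.003. A gene was thus often present in 1 library and at the lowest value in the others, at levels well above 1 RPKM.

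Detection of the set is given beside that of all genes of the same level in LSK cells. Over all genes, the share above the lowest value in WT LSC libraries was higher in each higher class of level, while for the interferon genes the class of 1 to 20 RPKM was not below that of 20 to 100 RPKM. Of the 10 genes averaging 100 RPKM or more in LSK cells, 10, 8 and 8 were above the lowest value in WT LSC 1 to 3, where 87.3%, 78.0% and 74.4% of 2233 such genes were. Of the 16 averaging 1 to 20 RPKM, 11, 9 and 6 were, where 41.3%, 35.0% and 24.4% of 6987 genes were. In the middle class of 20 to 100 RPKM, 7, 6 and 3 of 11 were, against 67.3%, 57.4% and 48.2% of 3971.

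**Figure D3:**
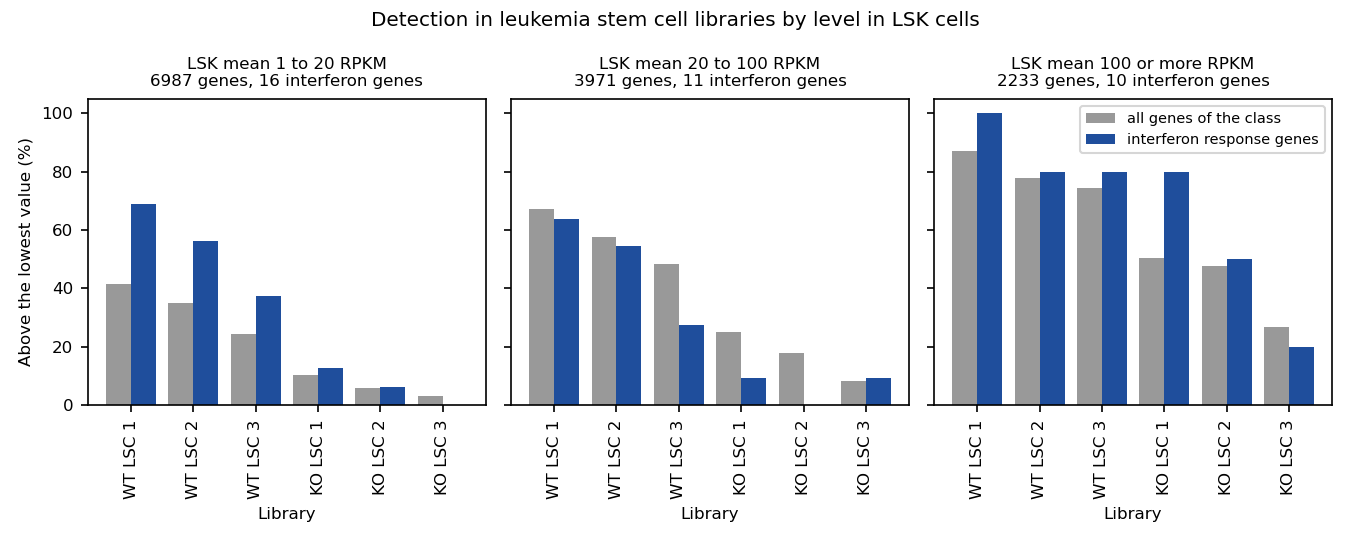
Share of genes above the lowest value in each WT and KO LSC library, for all genes (grey) and interferon response genes (blue), in 3 classes of mean level in LSK cells. In the highest class 10, 8 and 8 of 10 interferon genes were above it in WT LSC 1 to 3 and 8, 5 and 2 in KO LSC 1 to 3.

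In the CD93-/- cells the same step from LSK to LSC left few genes of the set with a signal. Of 36 tested, 26 fell and 0 rose, where 72.5% of 11785 genes fell and 0.433% rose, and 35 of 36 had a difference below 0 (background 95.5%) with a median of −3.50 against −3.43, so the count was close to the background. KO LSC and KO LSK libraries did not overlap for 29 of 36 (background 77.9%). At an unadjusted p under 0.05, 0 of 36 were higher, against 0.569% of all genes. Under quantile normalization the picture turned: 15 of 36 were below 0, 4 fell, 7 rose and the median was 0.17 against 0.18. Without the library labelled KO LSC 2, 24 fell. Leaving out either KO LSK library left 12 of the genes tested. Their median difference was −4.09 without KO LSK 1 (−2.42 for all genes) and −3.87 without KO LSK 2 (−2.47 for all genes).

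Of the 37 genes, 24 were at 0.003 in all 3 KO LSC libraries, among them every IFIT gene, Stat2, Irf9, the 3 RNA helicases, Usp18, Rsad2, Adar and Parp14. Most other genes were absent too. Of all genes at 1 to 20 RPKM in LSK cells, 10.2%, 5.91% and 3.12% were above 0.003 in KO LSC 1 to 3 (interferon genes: 2, 1 and 0 of 16). At 20 to 100 RPKM 24.9%, 17.9% and 8.01% were (1, 0 and 1 of 11). At 100 RPKM or more 50.25%, 47.7% and 26.65% were (8, 5 and 2 of 10). None of the 37 was above 0.003 in all 3. Those seen in 2 libraries were Isg20, Irf7, Bst2, Ifi35, Samd9l, Ifitm3 and Ly6e, and most of their values were high. Bst2 measured 0.003, 2427 and 6430 RPKM, and 6430 is the highest value of any of the 37 genes in any library. Isg20 measured 1120, 1596 and 0.003, and Ifitm3 1384, 4045 and 0.003. Irf7 measured 406, 0.003 and 266, and Samd9l 83.1, 99.2 and 0.003. For each of these genes the third library was at the lowest value. Of those seen in 1 library, Xaf1, an antagonist of an apoptosis inhibitor, measured 558 in library 1, where Isg15 also had its signal. Lgals3bp, a secreted glycoprotein, measured 67.2 and Mx1 1.34 in that library too, while Zbp1 measured 1.31 in library 3. Oasl2 measured 0.182 in library 1 and 0.003 in the others, and fell (adjusted p = 0.0165).

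Between KO and WT LSCs, 21 of the 37 genes had enough signal to be tested, 2 fell and 0 rose, where 14.2% of 6074 genes fell and 0.0988% rose (0 higher at an unadjusted p under 0.05, against 0.527%). Oas1a (chromosome 5, 120896256 to 120907521, minus strand) measured 8.21, 55.3 and 33.0 RPKM in WT LSC and 0.003 in all KO LSC libraries (limma adjusted p = 0.0268). Parp14 measured 24.5, 19.9 and 29.8 in WT LSC and 0.003 in all KO LSC libraries (adjusted p = 0.0201). In both genes every WT library had a signal and no KO library had one. Both therefore met the filter of 1 RPKM in 2 libraries through the WT group alone and could only be called lower. For such genes, Stat2 and Ddx58 included, the KO LSC libraries added no spread to the error of the test. That error also draws on the spread of all genes. Stat2, with 4.44, 11.3 and 2.56 against 0.003, missed the threshold (adjusted p = 0.0617). Ddx58, at 1.51, 42.4 and 1.33 against 0.003, was also without overlap. In total 19 of 21 were below 0 (background 85.8%) and 6 did not overlap (background 30.2%), and the median difference of −2.36 was close to the −2.43 of all genes. Under quantile normalization 8 of 21 were below 0 and 0 genes passed, of all genes as well. Without the library labelled KO LSC 2, or without KO LSC 3, 0 of all genes passed. Oas1a has a near-identical copy, Oas1g, so its reads may be shared.

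Other genes of the pathway showed the same split between presence and absence. Ifnar2 measured 92.7, 281 and 477 RPKM in WT LSC and 0.003 in all KO LSC libraries (adjusted p = 0.0201), 1 of 4 receptor and JAK-STAT genes tested to fall. Of 6 sensors and adaptors tested, 2 fell, Irf8 and the kinase Tbk1, with WT LSC means of 30.3 and 22.2 and 0.003 in KO. Of 4 negative regulators, 2 fell: the nuclease Trex1 (70.9, 373 and 318 in WT) and the phosphatase Ptpn2 (mean 18.6). Of 32 other interferon-stimulated genes, 8 fell, led by Sp140, Samhd1 and Uba7 with WT means of 86.9, 74.7 and 31.0. Of 7 GTPases tested, 0 fell (4 at an unadjusted p under 0.05). For scale, 14.2% of all 6074 genes tested fell, and 1588 of them had an unadjusted p under 0.05 in either direction. None of these calls held without KO LSC 2, without KO LSC 3 or under quantile normalization, where 0 of all genes passed. Ifnar2, Irf8, Tbk1, Trex1 and Ptpn2, all at 0.003 in KO LSC, were tested through the WT group alone and could only be called lower. The number of features above the lowest value was 5525 to 7956 in WT LSC and 1230 to 2967 in KO LSC, and its part in these absences was not tested.

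Whether the genotype difference itself differed between leukemic and naive cells was tested with an interaction term over the 10 CD93 libraries. Of 37 genes 1 passed, with the KO minus WT difference lower in LSCs, where 5.15% of 13485 genes passed that way and 0.934% the other way. At an unadjusted p under 0.05, 4 of the 37 were in that other direction (background 3.2%), and 26 of 37 terms were below 0 (background 68.6%). The 4 were Ifit1, Oas2, Usp18 and Cmpk2. Ifit1, Oas2 and Usp18 were at 0.003 in all 6 LSC libraries, so their terms only repeat the LSK difference with its sign turned. Cmpk2 was at 0.003 in every LSC library but WT LSC 1 (0.241). The gene that passed was Parp14, which was 5.08 and 5.64 RPKM in naive WT and 4.03 and 3.59 in naive KO libraries. It was 19.9 to 29.8 in WT LSC and 0.003 in KO LSC (log2 −4.26, SE 0.45, limma adjusted p = 0.00764). The KO LSC values, all at 0.003, added no spread to the error, and the SE of KO against WT in LSCs alone was 0.79. Among terms above 0, Ifit1 had the smallest p (log2 2.76, SE 0.68, adjusted p = 0.0576), and it was at 0.003 in all 6 LSC libraries. In LSK cells alone the same difference with the other sign (−2.76) had adjusted p = 0.700 in limma's test. Under quantile normalization Parp14 did not pass (adjusted p = 0.0576).

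The last comparison asks how MCP treatment goes with these genes in LSCs from WT cells, in the experiment with the most even libraries. Small decreases were common and 2 genes fell, both near the threshold, and neither passed under quantile normalization. Oas2 (chromosome 5, 120730333 to 120749853, minus strand) measured 8.87, 10.1 and 8.43 RPKM with vehicle and 3.62, 3.48 and 4.35 with MCP, or 9.12 ± 0.839 and 3.82 ± 0.469 (SD, n = 3 each). All MCP values were below all vehicle values (log2 −1.07, SE 0.19, limma adjusted p = 0.0394). Eif2ak2 (chromosome 17, 78852564 to 78882573, minus strand) measured 41.6, 42.2 and 47.6 with vehicle and 23.8, 29.0 and 30.7 with MCP, also without overlap (log2 −0.64, SE 0.12, adjusted p = 0.0495). The background was 1.8% of 14005 genes lower and 0.521% higher. Neither gene passed without any 1 of MCP LSC 1, MCP LSC 2 or the Veh LSC libraries, and Oas2 alone passed without MCP LSC 3 (adjusted p = 0.0442).

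Of 36 genes, 30 had a log2 difference below 0, against 71.8% of all genes, and the median was −0.30 against −0.18. In 20 genes all MCP values were below all vehicle values, against 25.6% of all genes, and in 0 all were above, against 4.91%. At an unadjusted p under 0.05, 14 were lower and 1 higher, where 19% and 4.01% of all genes were. Quantile normalization brought the median of all genes to 0.00 and that of the set to −0.11, with 26 of 36 below 0 and 0 past the threshold.

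All 11 oligoadenylate synthetase, IFIT and ADP-ribosylation genes had a log2 difference below 0, as did 71.8% of all genes, and of the 11 only Oas2 passed. Oas3 measured 6.43, 7.14 and 7.35 RPKM with vehicle and 4.22, 3.999 and 3.43 with MCP (log2 −0.71, SE 0.19, adjusted p = 0.0953). Oasl2 measured 29.9, 31.3 and 34.2 against 25.8, 19.6 and 26.7. Oas1a, at 14.9, 14.8 and 15.9 against 14.2, 14.9 and 15.73, was level (log2 −0.02, SE 0.13). Parp12, a mono-ADP-ribosyltransferase like Parp14, measured 10.8, 12.5 and 11.9 with vehicle and 7.46, 6.74 and 5.16 with MCP (−0.79, SE 0.19, adjusted p = 0.0730). Parp14 measured 16.7, 19.1 and 18.5 against 13.5, 14.97 and 13.6, and Dtx3l 34.9, 43.4 and 36.8 against 26.8, 20.1 and 30.3. All 4 ADP-ribosylation genes had no overlap, with Parp9 the smallest difference (−0.15, SE 0.11). Ifit1 measured 3.32, 4.75 and 4.92 against 2.97, 0.351 and 2.89, where MCP LSC 2 stood apart. Ifit2 measured 6.24, 5.87 and 5.61 against 3.32, 4.28 and 4.06, and Ifit3 1.59, 1.18 and 0.949 against 0.740, 0.382 and 0.411.

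Adar and Lgals3bp were among the genes with small and even differences. Adar measured 36.4, 37.2 and 37.2 RPKM with vehicle and 28.8, 26.4 and 30.7 with MCP (log2 −0.36, SE 0.10, adjusted p = 0.101). Lgals3bp measured 99.3, 109 and 98.9 against 90.4, 80.5 and 82.4 (−0.27, SE 0.08, adjusted p = 0.115). Ifitm3 measured 128, 122 and 119 against 101, 107 and 96.3, and Ly6e 384, 408 and 379 against 333, 318 and 266. All of these were without overlap and none passed. Of the signalling genes, Stat2 (15.6, 14.7 and 15.9 against 12.5, 10.7 and 15.3) and Irf9 overlapped, as did Irf7.
Against this pattern, 6 genes had a difference above 0: Isg15, Isg20, Irf7, Rtp4, Xaf1 and Zbp1. Isg20 measured 29.6, 23.0 and 31.2 with vehicle and 43.0, 45.8 and 30.6 with MCP (log2 0.49, SE 0.18, adjusted p = 0.178). Isg15 measured 23.3, 30.0 and 19.8 against 24.8, 44.2 and 29.5 (0.39, SE 0.23, adjusted p = 0.356). MCP and vehicle overlapped in all 6. Between genes of 1 role the direction could therefore differ, as for Isg15 and Herc6, which measured 9.25, 9.65 and 9.49 against 8.31, 7.05 and 6.97.

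**Figure D4:**
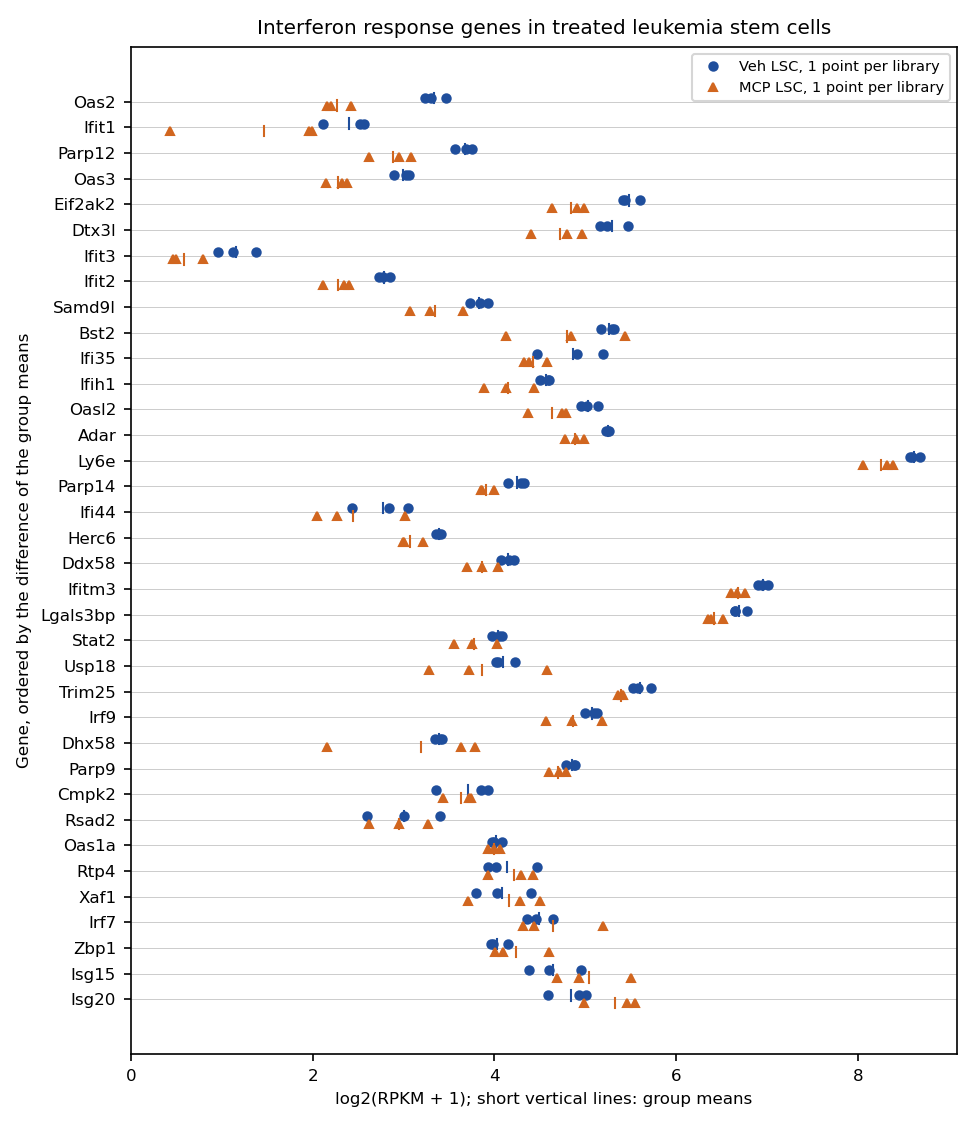
Level of each of the 36 listed genes in the 3 Veh LSC libraries (circles) and the 3 MCP LSC libraries (triangles), as log2(RPKM + 1), ordered by the difference of the group means. Oas2 heads the order with a log2 difference of −1.07, and in 20 genes all triangles lie left of all circles.

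Length and cell markers moved with the treatment as well. From the shortest to the longest class of genes, 8 of 11, 11 of 14 and 11 of 11 interferon genes had a difference below 0, with medians of −0.27, −0.20 and −0.35, and the median of all genes was −0.08, −0.18 and −0.25. Of 10 stem cell markers, all above the lowest value, the sum was 299 to 311 RPKM with vehicle and 202 to 217 with MCP. Of 10 macrophage markers, 10 were above it with vehicle, summing to 23.7 to 29.7, and 5 to 7 with MCP, summing to 16.3 to 18.0, where C1qb, C1qc and Mertk were at 0.001 in all 3. Neutrophil markers summed to 186 to 205 with vehicle and 255 to 365 with MCP, while 8 of 10 and 6 or 7 of 10 were above the lowest value. Of the 6 neutrophil markers tested, 3 were above 0 and 3 below, and of the 8 macrophage markers tested 3 were above and 5 below. Plasmacytoid dendritic cell markers summed to 79.4 to 89.9 with vehicle and 56.2 to 57.5 with MCP. The part of length, of these cells and of the lower number of features above the lowest value in the result was not tested.

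In the rest of the pathway, 3 genes passed with MCP, all lower, where 1.8% of all genes tested passed that way. They were Ptpn11, which encodes the phosphatase SHP2 (55.5, 53.7 and 54.9 RPKM with vehicle and 38.1, 39.6 and 39.8 with MCP, adjusted p = 0.0361), 1 of 8 negative regulators; the GTPase gene Gvin1 (36.8, 37.4 and 37.4 against 25.8, 25.3 and 26.0, adjusted p = 0.0389), 1 of 17; and Mndal, a DNA-binding protein gene (69.6, 76.9 and 85.9 against 55.2, 50.4 and 49.3, adjusted p = 0.0405), 1 of 42 other interferon-stimulated genes tested. Of 8 receptor and JAK-STAT genes 0 passed (3 lower at an unadjusted p under 0.05). Of 14 sensors and adaptors 0 passed (5 lower at an unadjusted p under 0.05). At that unadjusted threshold 2 of the 8 negative regulators, 6 of the 17 GTPases and 14 of the 42 other genes were lower. Of all genes tested, 19% were. Of the 21 ligands only Ifnk, the gene of interferon kappa, was high enough to be tested, at 1.04, 2.24 and 1.62 against 0.197, 0.407 and 0.001 (adjusted p = 0.0922).

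**Figure D5:**
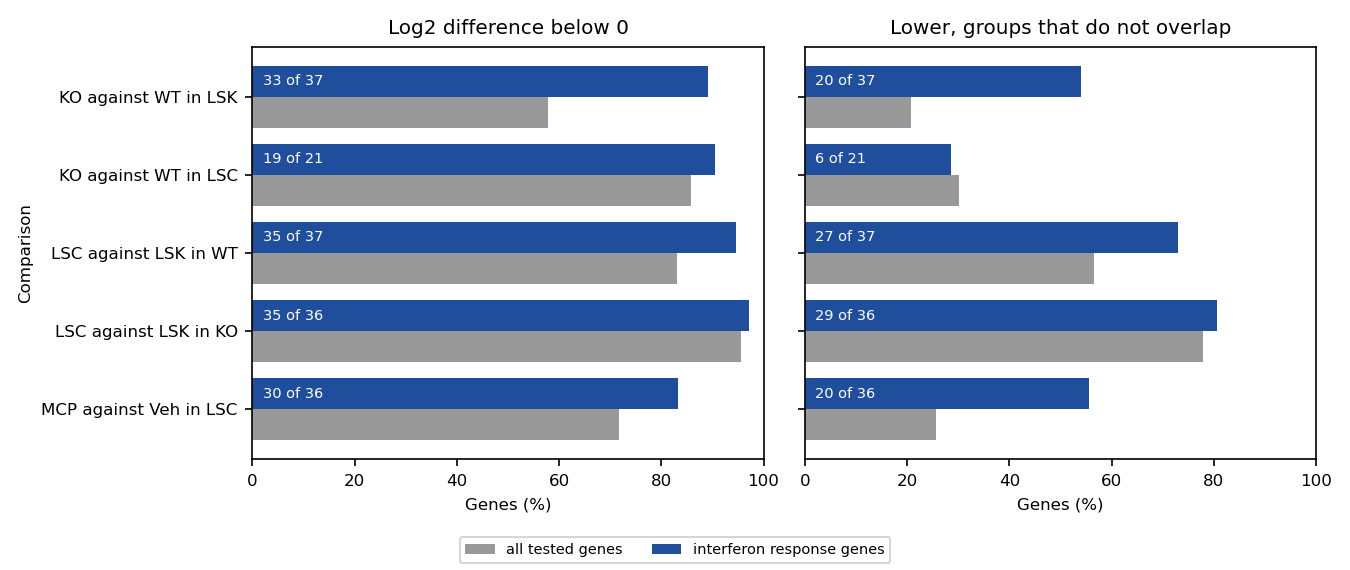
Share of interferon response genes (blue, with counts) and of all tested genes (grey) whose log2 difference was below 0 (left) and whose groups did not overlap with the second group lower (right), in 5 comparisons. The bars are far apart for KO against WT in LSK cells, at 20 of 37 genes and 20.7% in the right panel. In that panel MCP against vehicle stood at 20 of 36 and 25.6%, and the step from LSK to LSC in WT at 27 of 37 and 56.6%. The bars are close for both comparisons that involve KO LSC.

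Genes with and without the promoter motif are set side by side. For KO against WT in LSK cells, 10 of 12 genes with the core motif in the window were below 0 (median −0.99) and 14 of 16 without it (median −0.50). For MCP against vehicle these numbers were 11 of 12 (median −0.35) and 13 of 16 (median −0.32). The Ifit1 and Isg15 sequences printed above, both with the core, belonged to genes with log2 differences of −2.76 and −0.05 in LSK cells, and no test was made of motif against difference.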

How the data were processed

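SMART-Seq v4 libraries of sorted mouse bone marrow cells were made from RNeasy Micro extracts, per the labels' protocols. The deposited values are RPKM made by the authors, a unit inferred from the values. The build is GRCm38 (mm10), per the submitters' processing notes, and no source used here gives the aligner, the counter or the annotation. Groups and replicate numbers follow the sample titles, since another label of the drug samples says LSK and their titles say LSC. The labels do not say that replicates are separate animals, so p-values may measure only technical spread.

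Values were tested as log2(RPKM + 1) with limma 3.58.1 (R 4.3.3), with an intensity trend, two-sided, with Benjamini-Hochberg adjustment across every gene tested and a threshold of 0.05. A gene was tested where 2 or more libraries of the fit reached 1 RPKM. Each fit held only the compared groups, since genes at the lowest value in all LSCs would lend identical values to the error, and the interaction used all 10 CD93 libraries. A log2 difference of low genes is understated by the added 1. Features sharing a name (454 and 90) stayed apart. The same replicate number does not mark a shared animal in the labels, and same-numbered libraries did not deviate together (r of −0.287 in LSK cells and −0.0383 to 0.0436 elsewhere), so the number was not used as a block. Alternatives were quantile normalization, no filter, a mean of at least 5 RPKM, a pseudocount of 0.1, the replicate block, library weights, all 10 libraries in 1 model and leaving out each library.

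The 37 genes and the other gene and marker lists were chosen with earlier results of these data known. Values by library are given for most genes that passed in a comparison and for most of the 4 largest differences without overlap. They are also given for the 4 highest in WT LSK and most of the 4 highest in Veh LSC. Not printed are Ifi44, which passed in the step from LSK to LSC in KO, and the LSK values of Rtp4. Other pathway genes are named by the smallest p among those that passed, at most 3 to a list and comparison, or by highest level where none did; Socs1 and other named exceptions were chosen after their values were seen. Promoter sequences are from RefSeq (GRCm38.p6) and gene positions from GENCODE M21 (GRCm38).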

Additional observations from a re-analysis of the deposited data

Results flagged for a closer look

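Parp14 was the gene of the set that passed the test of whether the genotype difference differed between leukemic and naive cells (interaction log2 −4.26, limma adjusted p = 0.00764). The KO LSC values, all at 0.003, added no spread to the error of this test. Its SE was 0.45, against 0.79 in the separate fit of KO against WT in LSCs alone, and whether its p is too small was not tested. Parp14 was also the gene in which every library moved one way in the wild type and the other way in the CD93-/- cells. Its mean rose by 19.4 RPKM from WT LSK to WT LSC, and all 3 KO LSC libraries were at 0.003, below both KO LSK libraries. These opposite directions hold on the deposited scale: under quantile normalization the step from LSK to LSC in KO was also higher (log2 0.64, limma adjusted p = 0.00564). The KO LSC values were at 0.003 before normalization, so that step is not a detected rise. The interaction passed when each LSC library was left out in turn (adjusted p 0.00387 to 0.0241), each time with KO LSC at 0.003. It did not pass with quantile normalization (adjusted p = 0.0576) or the replicate block (adjusted p = 0.0668). KO LSC libraries had 1230 to 2967 features above the lowest value, and the part of that in the result was not tested.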

How the results depend on the processing

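With quantile normalization, genes called over all genes numbered 2 for KO against WT in LSK cells, 0 for KO against WT in LSCs, 1294 for the step from LSK to LSC in WT, 4724 for that step in KO and 150 for the interaction. Interferon genes lower numbered 0 for KO against WT in LSCs (8 below 0), 4 in the WT step, 4 in the KO step (7 higher, 15 below 0), 0 for the interaction (1 higher) and 0 for MCP. Named genes that turned to higher were, in the WT step, Ifih1 (1.34), Trim25 (0.30) and Parp12 (0.34). In the KO step they were Ifit1 (0.74), Ifit2 (0.34), Ifit3 (0.29), Stat2 (0.44), Oas3 (0.79), Oasl2 (0.48), Mx1 (0.72), Rsad2 (0.29), Ifih1 (0.22), Ddx58 (0.12), Zbp1 (1.06), Parp12 (0.72), Parp14 (0.64), Dtx3l (0.41), Cmpk2 (0.30), Herc6 (0.20), Eif2ak2 (0.023) and Adar (0.14), on the log2 scale; the cause was not tested. Without a filter, 0 genes and 0 interferon genes passed for KO against WT in LSCs, and 0 interferon genes for MCP. With a filter at a mean of 5 RPKM, 2639 genes passed in the WT step, with 0 interferon genes higher, and 4643 in the KO step, with 11 of the interferon genes lower and 20 below 0. A pseudocount of 0.1 gave 5 lower for KO against WT in LSCs, 0 higher in the WT step, 4 lower for the interaction and 1 lower for MCP. Library weights gave 2369 genes and 10 interferon genes lower for KO against WT in LSCs, 0 higher in the WT step, 1 higher for the interaction and 0 lower for MCP. With all 10 libraries in 1 model, 247 genes and 1 interferon gene passed in the LSK comparison, and 5 interferon genes were lower in LSCs, with 32 below 0.

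Leaving out 1 library at a time gave 18 to 76 genes and 0 to 2 interferon genes lower in the LSK comparison, with Ifit1 and Oasl2 passing without KO LSK 1. For KO against WT in LSCs it gave 0 to 1967 genes, 0 to 9 lower and 0 to 1 higher. The WT step gave 39 to 5783 genes, 0 to 16 lower and 0 to 1 higher, and the KO step 9 to 9365 genes, 0 to 28 lower, 0 to 2 higher and 10 to 35 below 0. The interaction gave 491 to 1558 genes, 1 to 4 lower and 0 to 3 higher. MCP gave 25 to 406 genes, with the low end without Veh LSC 3, and 0 to 1 lower.

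Same-numbered libraries did not deviate together, so the replicate block rests on numbers alone. With the block, 0 genes and 0 interferon genes passed for KO against WT in LSCs and for the interaction, 39 genes and 0 interferon genes for MCP, and 0 interferon genes rose in the WT step. Crossing the 2 LSK numbers, an alternative added after seeing the data, gave 192 genes and 3 interferon genes lower. Depth is unknown, so a value of 0.003 cannot be given an upper limit.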
